A study of Rattus norvegicus with 30 samples.

Results

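The comparison described here is that of an excess with a control content of vitamin A in the diet of rats after Glenn surgery, read from 5 libraries of each group, 10 of the 30 in the study. The libraries were chosen by their treatment label and not by any measured value. Glenn surgery, also called a superior cavopulmonary anastomosis, joins a large vein to the pulmonary artery, and blood then reaches the lung without first passing through the liver. All animals of both groups were wild-type rats that had Glenn surgery, and lung cells carrying CD31, an adhesion protein of endothelial cells, were collected 3 weeks later. The strain, age and diet composition are not given in the sources used here. The 20 other libraries came from sham-operated animals on each of the diets (control, deficient or excess vitamin A) and from Glenn animals on deficient feed.

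Vitamin A is taken up as retinol or its esters and oxidised to retinoic acid, which binds the receptors RAR and RXR on DNA and switches on target genes. Among the best-known targets are Cyp26a1 and Cyp26b1, whose enzymes break retinoic acid down, Dhrs3, which returns retinaldehyde to retinol, and Rarb, a receptor gene. In lung endothelium, signalling from BMP9 and BMP10 through the receptor ALK1 (the product of Acvrl1) and its partner endoglin (Eng) keeps vessels quiescent, and its loss is known for arteriovenous malformations.

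The 10 libraries held 31.8 M to 77.6 M estimated counts (M, mega), with a median of 42.0 M. The 10 tested endothelial markers summed to 7294 to 9574 CPM (counts per M, after scaling for library size and composition) on the control diet and 8207 to 10515 CPM on the excess diet. Transcripts of type 2 alveolar cells were also abundant: their 10 markers summed to 40483 to 79798 CPM on the control diet and 38296 to 57322 CPM on the excess diet. Of the 9 tested macrophage and monocyte markers, Lyz2, which is also on the type 2 list, was at 8979.8 to 18846 CPM over the 10 libraries, and the others stayed at or below 89.3 CPM; Marco was at 0 in 8 of the 10 libraries. Fewer cells of a type and less RNA per cell cannot be told apart in these bulk libraries.

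The library names fall in separate number ranges, and the diets were not balanced over them. All 5 control-diet libraries (381, 383, 384, 385 and 387) and the excess-diet replicates 1 and 2 (372 and 374) belong to the range 355 to 387, called here the lower-numbered range. The excess-diet replicates 3, 4 and 5 (600, 603 and 604) belong to the higher-numbered range, 598 to 606. What the ranges stand for is not given. RT1-CE16, a class I histocompatibility gene, split the libraries differently, at 22.3 to 31.5 CPM in control replicates 1 to 3 and 28.5 to 32.8 CPM in excess replicates 1 and 2, against 407 to 556 CPM in the other 5. Sex was assigned from the level of Ddx3y (male above 10 CPM) and not from a label. By this rule 2 of the 5 control and 3 of the 5 excess libraries were male. Control replicate 1 stood apart in Cyp26b1, and excess replicate 1 in Srgn, Spns2, Smad6 and Eng.

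With a term for the number range in an edgeR fit of all 30 libraries, 237 of the 16171 tested genes (1.47%) had an adjusted p under 0.05 and are referred to as called. Of these, 144 (0.89%) were higher on the excess diet and 93 (0.575%) lower. Among the higher genes were the endothelial genes Plvap, Jam2, Esam and Vwf. Among the lower ones were the epithelial genes Epcam, Krt8 and Krt18 and the genes Upk1b and Lrrn4 of mesothelium, the cell layer covering the lung. Most differences were small: the median was 1.53-fold among the higher and 1.78-fold among the lower genes, and 21 higher and 36 lower genes passed 2-fold. The p-values measure the spread between these libraries, since the labels do not say that each came from another animal.

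Without the range term, 19 genes (0.117%) were called, 17 higher and 2 lower, and all 19 were among the 237. All 237 kept their direction, with a median of 72.9% of the log2 difference, and 201 of them had an unadjusted p under 0.05. The 237 were chosen by their p-values in these same libraries. Their kept signs and small p-values, here and in the later refits, therefore test nothing. With the lower-numbered libraries alone, in which the excess group has only its replicates 1 and 2, 267 genes were called (1.59%), 147 of them among the 237. When the range term was replaced by one for the level of RT1-CE16, 78 were called (0.482%).

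**Figure D1:**
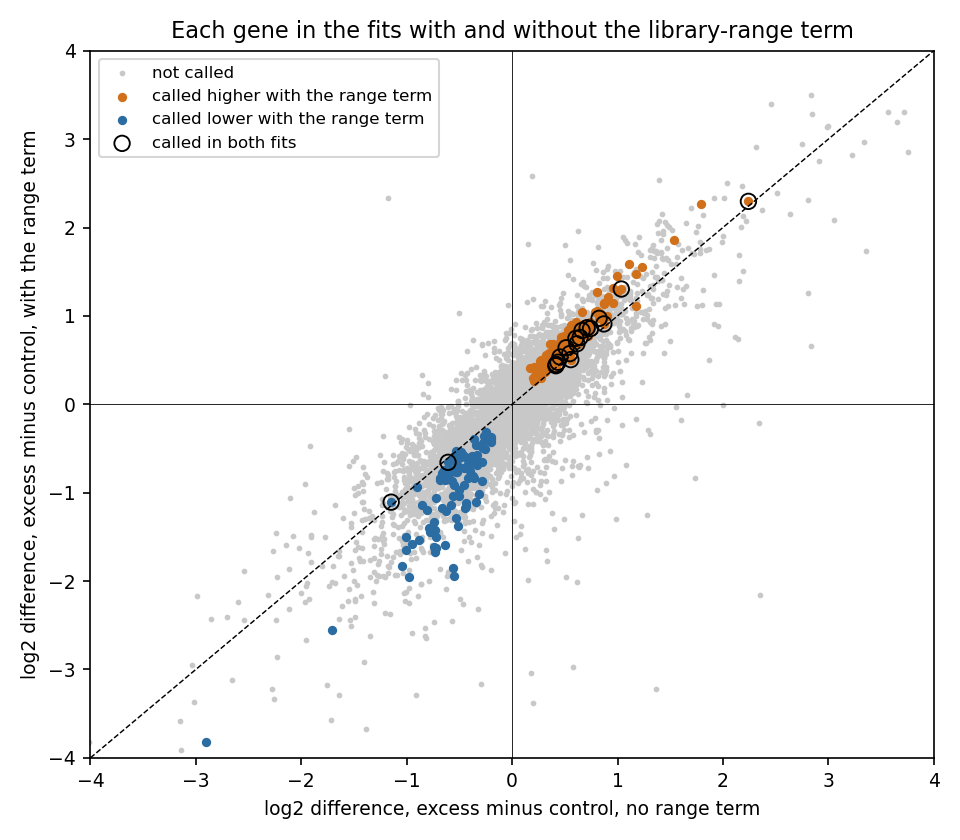
Log2 difference between excess and control diet after Glenn surgery for each tested gene, without the range term (horizontal) and with it (vertical); grey points were not called, orange and blue ones were called higher (144) and lower (93) with the term, rings mark the 19 called in both fits, and the dashed line marks equal values. All called genes lie on the same side of 0 in both fits, most of them farther from 0 with the term; 15 genes, 2 of them called, lie outside the axes.

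The fit with the range term sets the diet difference largely from excess replicates 1 and 2 against the controls, so that the following values describe the genes it called and test nothing. Against the control diet, the median log2 difference of the called higher genes was 0.67 in the lower-numbered excess libraries and 0.27 in the higher-numbered ones, and that of the called lower genes was -0.84 and -0.21. The higher-numbered libraries still lay on the called side for 137 of the 144 higher and 86 of the 93 lower genes. In the fit, the range term had the opposite sign to the diet in 141 of the 144 and 90 of the 93, and it was itself called in 25 and 34 of them, against 1.64% of all tested genes. The 5 excess libraries lay wholly above the 5 control libraries for 30 of the called higher genes and wholly below them for 12 of the called lower genes, while 1.2% of all tested genes had groups that did not overlap.

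The number of calls also depended on single libraries. Without excess replicate 1, only Rftn1 and Tmem252 were called (2 genes, 0.0124%), although all 237 kept their direction at a median of 86.6% of the log2 difference. Without control replicate 1, 559 genes were called (3.46%). The counts without control replicates 3, 4 and 5 were 139 (0.86%), 98 (0.606%) and 57 (0.352%), and those without excess replicates 2 and 3 were 90 (0.557%) and 380 (2.35%).

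**Figure D2:**
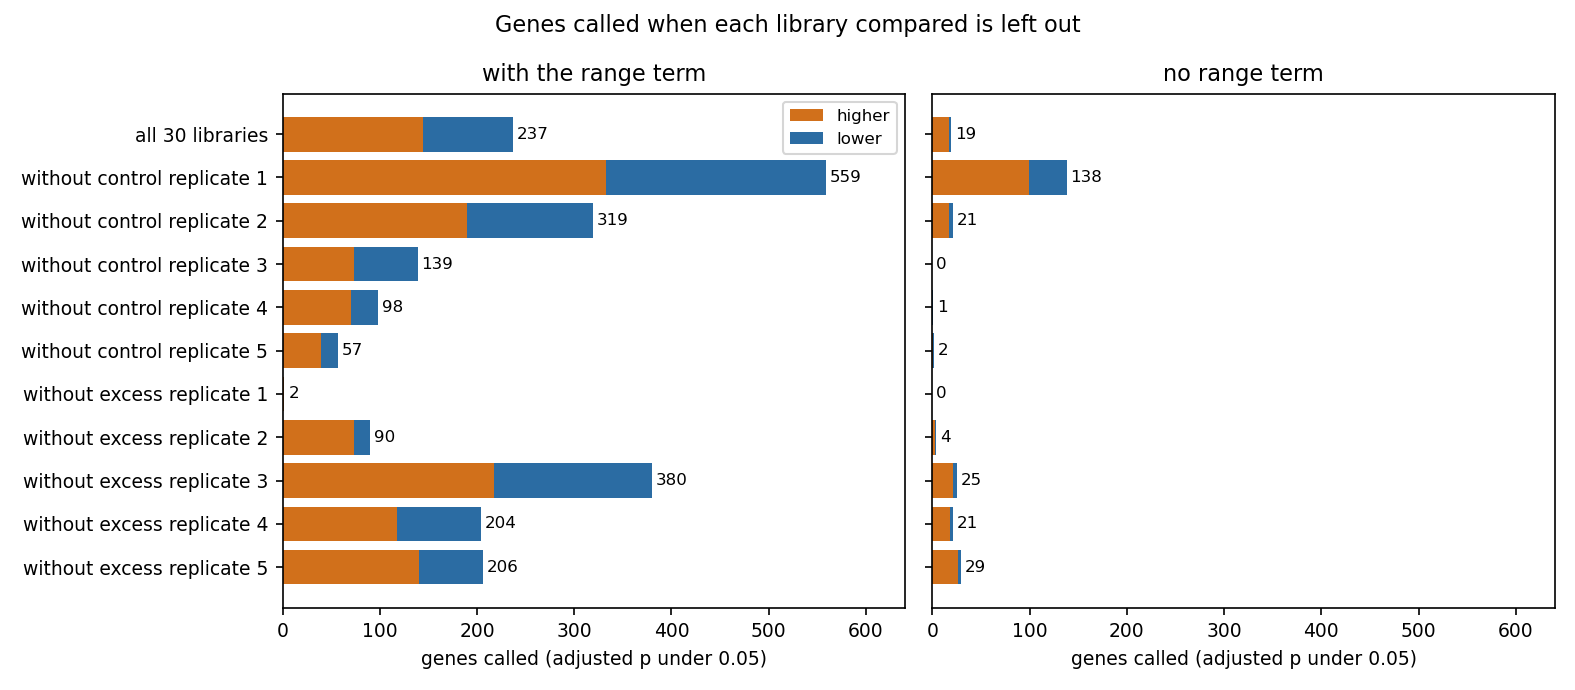
Number of genes called higher (orange) and lower (blue) on the excess diet after Glenn surgery with all 30 libraries and without each of the 10 compared libraries in turn, with the range term (left) and without it (right); the number at each bar is the total. With the term the total runs from 2 without excess replicate 1 to 559 without control replicate 1, and without the term from 0 to 138.

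Among the genes called in both fits, Srgn encodes serglycin, a proteoglycan of secretory granules. It stood at 161, 160, 117, 114 and 103 CPM in control replicates 1 to 5 and at 309, 205, 189, 171 and 199 CPM in excess replicates 1 to 5. The groups did not overlap, and the difference was 1.82-fold (log2 0.87, SE 0.15, edgeR adjusted p 0.00542; 0.71 and 0.039 without the term; 0.68 and 0.0931 without excess replicate 1). Chn2, whose product beta-chimaerin switches off the GTPase Rac, stood at 35.2, 29.0, 22.7, 29.1 and 27.7 CPM on the control and 59.0, 43.5, 38.6, 41.0 and 36.5 CPM on the excess diet, again with no overlap. It rose 1.68-fold (log2 0.75, SE 0.11, edgeR adjusted p 0.00188; 0.61 and 0.0267 without the term).

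Tmem252, a gene for a membrane protein, stood at 226, 175, 120, 142 and 162 CPM on the control diet and at 538, 389, 224, 312 and 229 CPM on the excess diet. Excess replicate 3 lay just under the highest control library, and the others lay above all controls. The fitted rise was 2.47-fold (log2 1.30, SE 0.18, edgeR adjusted p 0.00116). Rftn1, which encodes the lipid raft protein raftlin, stood at 47.6, 39.5, 33.2, 41.1 and 39.3 CPM on the control diet and at 63.3, 61.1, 46.8, 53.5 and 61.4 CPM on the excess diet. Here too only excess replicate 3 overlapped the controls, and the rise was 1.56-fold (log2 0.64, SE 0.09, edgeR adjusted p 0.00116).

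Other genes called higher in both fits with the groups apart were the Wnt ligand gene Wnt5b, the riboflavin transporter gene Slc52a3, Maob, which encodes the amine-degrading enzyme monoamine oxidase B, and the vesicle-sorting gene Mvb12b. Wnt5b stood at 3.52 ± 0.678 and 6.43 ± 0.806 CPM (SD, n = 5 each) and Slc52a3 at 7.75 ± 1.94 and 13.7 ± 2.71 CPM. Maob stood at 271 ± 35.8 and 415 ± 71.4 CPM and Mvb12b at 41.0 ± 5.0 and 55.4 ± 5.51 CPM. Their edgeR adjusted p without the term lay between 0.0232 for Wnt5b and Slc52a3 and 0.0328 for Mvb12b. The range term was near 0 for Wnt5b (log2 -0.06) and Mvb12b (-0.07), so that the diet difference of Wnt5b was 0.91 with the term and 0.87 without it.

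Marker genes of several vessel types had higher fitted levels on the excess diet, and few of them were called. Over all 16171 tested genes, 8628 had a higher fitted level on the excess diet and 0.89% were called higher. Of the 9 general capillary markers 7 had a higher fitted level on the excess diet and 2 were called, of the 10 venous markers 10 and 3, and of the 10 arterial markers 10 and 1. Their median log2 differences were 0.47, 0.38 and 0.48 (0.33, 0.27 and 0.30 without the term), beside 0.02 for all tested genes in both fits. Without excess replicate 1 they were 0.24, 0.36 and 0.63, and with the marker scores described further on 0.28, 0.26 and 0.34. Of the 10 markers of aerocytes, the other capillary type of the lung, 3 were higher and none was called. Their median was -0.16 (0.01 without the term, -0.20 with the scores). Of the 10 general endothelial markers 9 were higher and 1 was called, with a median of 0.20 (0.008 with the scores). Cdh5, the cadherin of endothelial junctions, differed by 0.20 (edgeR adjusted p 0.415) and Pecam1, which encodes CD31, by 0.14 (0.716).

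Plvap, which forms the diaphragms of endothelial caveolae and fenestrae, stood at 1699, 1453, 1122, 1030 and 928 CPM in the control libraries and at 3124, 2128, 1317, 1549 and 1597 CPM in the excess libraries. Excess replicates 1 and 2 lay above all controls, and replicates 3 to 5 fell between the lowest and the highest control. The rise was 1.81-fold (log2 0.86, SE 0.17, edgeR adjusted p 0.0106; 0.64 and 0.18 without the term; 0.62 and 0.181 without excess replicate 1). Edn1, the gene of the vasoconstrictor endothelin-1, stood at 207, 178, 178, 201 and 192 CPM on the control diet and at 330, 289, 196, 216 and 297 CPM on the excess diet. Only excess replicate 3 lay within the control range, and the rise was 1.68-fold (log2 0.75, SE 0.14, edgeR adjusted p 0.008; 0.47 and 0.264 without the term).

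The called venous markers were Ackr1, Vwf and Prss23. Ackr1, the chemokine-binding receptor of venules, stood at 48.0 ± 11.7 CPM on the control and 76.8 ± 25.8 CPM on the excess diet (SD, n = 5 each), a 1.87-fold difference (log2 0.90, edgeR adjusted p 0.0275). Vwf, the gene of von Willebrand factor, which carries platelets to injured vessel walls, stood at 1217, 1009, 542, 651 and 704 CPM and at 1631, 1212, 778, 1057 and 1051 CPM. Control replicates 1 and 2 overlapped the excess group, and the rise was 1.65-fold (log2 0.72, SE 0.18, edgeR adjusted p 0.041; 0.59 and 0.327 without excess replicate 1). Prss23, a serine protease gene, rose 1.31-fold (edgeR adjusted p 0.0149). Without the term none of these 3 was called, with adjusted p of 0.192 for Ackr1, 0.361 for Vwf and 0.136 for Prss23.

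Of 27 genes of cell junctions, 3 rose and 1 fell, while 0.89% and 0.575% of all tested genes were called in those directions. Jam2, a junctional adhesion molecule of endothelium, stood at 579, 432, 305, 352 and 379 CPM on the control diet and at 979, 705, 511, 607 and 628 CPM on the excess diet. Only control replicate 1 reached into the excess range, and the rise was 1.81-fold (log2 0.86, SE 0.16, edgeR adjusted p 0.008; 0.74 and 0.039 without the term; 0.66 and 0.151 without excess replicate 1). Esam, another endothelial adhesion molecule, rose 1.37-fold (edgeR adjusted p 0.0146), and the arterial gap-junction gene Gja5 1.75-fold (0.0344). The one that fell was Cldn7, a claudin of epithelial junctions.

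Vegfc encodes the ligand of the receptor VEGFR3, a growth factor of lymphatic and sprouting blood vessels. It was the only called gene of the 10 tested VEGF ligands and receptors, while 1.47% of all tested genes were called. It stood at 62.9, 50.3, 38.0, 38.4 and 41.2 CPM on the control diet and at 91.7, 64.5, 55.7, 54.3 and 84.5 CPM on the excess diet. Control replicate 1 alone overlapped the excess group, and the rise was 1.67-fold (log2 0.74, SE 0.15, edgeR adjusted p 0.0141; 0.60 and 0.104 without the term; 0.61 and 0.187 without excess replicate 1). Vegfa, the main blood-vessel growth factor, stood at 398 ± 68.4 and 361 ± 57.2 CPM (log2 -0.22, SE 0.12, edgeR adjusted p 0.413). None of the 20 tip-cell genes, which mark the leading cells of sprouts, was called, and their median was -0.04 (0.05 without the term); the tip-cell ligand gene Angpt2 stood at 79.8 ± 16.9 and 83.5 ± 22.7 CPM.

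Of the 23 genes of the BMP9/ALK1 pathway, 3 rose, 1 fell and 16 had a higher fitted level, with a median of 0.26 (0.23 without the term), while 1.47% of all tested genes were called. The median was 0.14 without excess replicate 1 and 0.0777 with the marker scores described further on. Acvrl1, the receptor gene, stood at 619, 762, 482, 484 and 473 CPM on the control diet and at 1042, 740, 583, 676 and 653 CPM on the excess diet. Eng, the co-receptor gene, stood at 882, 807, 631, 676 and 587 CPM and at 1330, 908, 749, 782 and 821 CPM. In both, control replicates 1 and 2 lay within the excess range, and control replicates 3 to 5 lay below all excess libraries.

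The rise was 1.44-fold for Acvrl1 (log2 0.52, SE 0.13, edgeR adjusted p 0.0344) and 1.43-fold for Eng (0.52, SE 0.13, 0.0389). Without the term the differences were 0.39 and 0.36 (adjusted p 0.228 and 0.312), and without excess replicate 1 the adjusted p with the term was 0.397 for Acvrl1 and 0.431 for Eng. Smad9, a gene for a transcription factor that the pathway activates, fell 1.61-fold (edgeR adjusted p 0.0341; 0.395 without the term). Id1, a direct target of the pathway, stood at 64.4, 78.7, 76.5, 67.1 and 69.1 CPM on the control and at 101, 99.4, 79.9, 81.0 and 126 CPM on the excess diet. Its groups did not overlap, and its difference missed the threshold (log2 0.39, SE 0.12, edgeR adjusted p 0.1). Smad6, an inhibitor of the pathway, differed by 0.49 (SE 0.19, edgeR adjusted p 0.222; 0.14 and 0.902 without excess replicate 1), with excess replicate 1 at 232 CPM and the other 4 excess libraries at 99.4 to 127 CPM.

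Of the 16 tested glucocorticoid-induced genes, 13 had a higher fitted level, as had 8628 of all 16171, and 2 were called, as were 1.47% of all tested genes, with a median of 0.42 (0.37 without the term). Mt2A, which encodes a metal-binding metallothionein, stood at 18.2, 33.8, 21.3, 17.8 and 20.3 CPM on the control diet and at 71.4, 60.0, 17.9, 26.8 and 19.1 CPM on the excess diet. The excess libraries above all controls were replicates 1 and 2, and replicates 3 to 5 lay among the controls. The fitted rise was 2.40-fold with the range term (log2 1.27, SE 0.27, edgeR adjusted p 0.017), where the range term was also called (-1.10, 0.0091), and without it the diet difference was 0.81 (0.413). Ddit4, a stress-induced inhibitor of mTOR signalling, stood at 90.8 and 102 CPM in excess replicates 1 and 2 and at 45.8, 71.0 and 60.0 CPM in replicates 3 to 5, against 41.3 to 62.7 CPM in the controls. Nfkbia, the inhibitor and target of NF-kB, stood at 1565 and 1595 CPM in excess replicates 1 and 2, and at 802 to 1058 CPM in replicates 3 to 5, against 813 to 1104 CPM in the controls.

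The pan-epithelial and alveolar marker lists went the other way, while the airway epithelial list, given further on, had a median near 0. Over all 16171 tested genes, 7543 had a lower fitted level on the excess diet and 0.575% were called lower. All 7 pan-epithelial markers had a lower fitted level on the excess diet, and 3 were called, with a median of -0.61 (-0.46 without the term). Their summed level ran from 906 to 1350 CPM in the control libraries and from 612 to 1123 CPM in the excess libraries. Epcam, the epithelial cell adhesion molecule, stood at 191, 141, 180, 163 and 205 CPM on the control diet and at 90.0, 119, 143, 137 and 121 CPM on the excess diet. Control replicate 2 lay just under excess replicate 3, and the other controls lay above all 5 excess libraries. The fall was 1.58-fold (log2 -0.66, SE 0.15, edgeR adjusted p 0.0233; -0.53 and 0.136 without the term). The simple-epithelium keratin genes Krt8 and Krt18 fell 1.69-fold and 1.71-fold (adjusted p 0.0196 and 0.0233), and without the term neither was called (0.205 and 0.149).

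The epithelial claudin gene Cldn7 stood at 18.6, 19.3, 24.7, 19.3 and 19.9 CPM on the control and at 9.16, 10.9, 14.1, 14.6 and 16.6 CPM on the excess diet, with no overlap. It fell 1.81-fold (log2 -0.86, SE 0.18, edgeR adjusted p 0.0126; -0.64 and 0.136 without the term). Slc39a4, a zinc importer gene of epithelia, stood at 105, 91.5, 118, 93.9 and 110 CPM on the control and at 60.3, 66.9, 71.4, 78.3 and 63.3 CPM on the excess diet, again with no overlap. It fell 1.58-fold and was one of the 2 genes called lower in both fits (log2 -0.66, SE 0.14, edgeR adjusted p 0.0128; -0.61 and 0.0288 without the term). The other was Rassf4, a gene for a Ras-association domain protein, at 6.34, 12.1, 15.9, 11.9 and 18.8 CPM and at 5.63, 6.32, 5.85, 6.56 and 4.99 CPM. Its excess libraries were within a narrow range at or below the lowest control, apart from replicate 4, and the fall was 2.15-fold (log2 -1.11, SE 0.21, edgeR adjusted p 0.008; -1.15 and 0.0119 without the term).

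The type 2 alveolar markers, which belong to surfactant-making cells, all had a lower fitted level (10 of 10), but none was called, with a median of -0.34 (-0.36 without the term). Sftpc, which encodes surfactant protein C, differed by -0.34 (SE 0.20, edgeR adjusted p 0.488). Among the 8 tested type 1 alveolar markers 1 was higher and 7 lower. None was called, with a median of -0.46 (-0.23 without the term). Among the 8 tested airway epithelial markers 3 were higher and 5 lower, and none was called. Their median was -0.04 (-0.06 without the term, and 0.30 without excess replicate 1). The 7 tested leukocyte markers held no called gene and had a median of -0.13, and their summed level was 150 to 179 CPM in the control and 128 to 216 CPM in the excess libraries. Lcp1 alone made up 127 to 171 and 113 to 193 CPM of it, the general leukocyte gene Ptprc stayed at or below 8.69 CPM, and Cd52 was at 0 in all 10 libraries. All 6 platelet markers had a lower fitted level, with a median of -1.22 (-0.87 without the term), and none was called; their sum ran from 23.5 to 108 CPM and from 26.2 to 37.9 CPM. With mean scores of leukocyte and epithelial markers added to the fit, no gene was called, 1207 had an unadjusted p under 0.05 in edgeR, and all 237 kept their direction at a median of 80.7% of the log2 difference. The part that the mixture of cells has in the diet difference was not tested further.

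**Figure D3:**
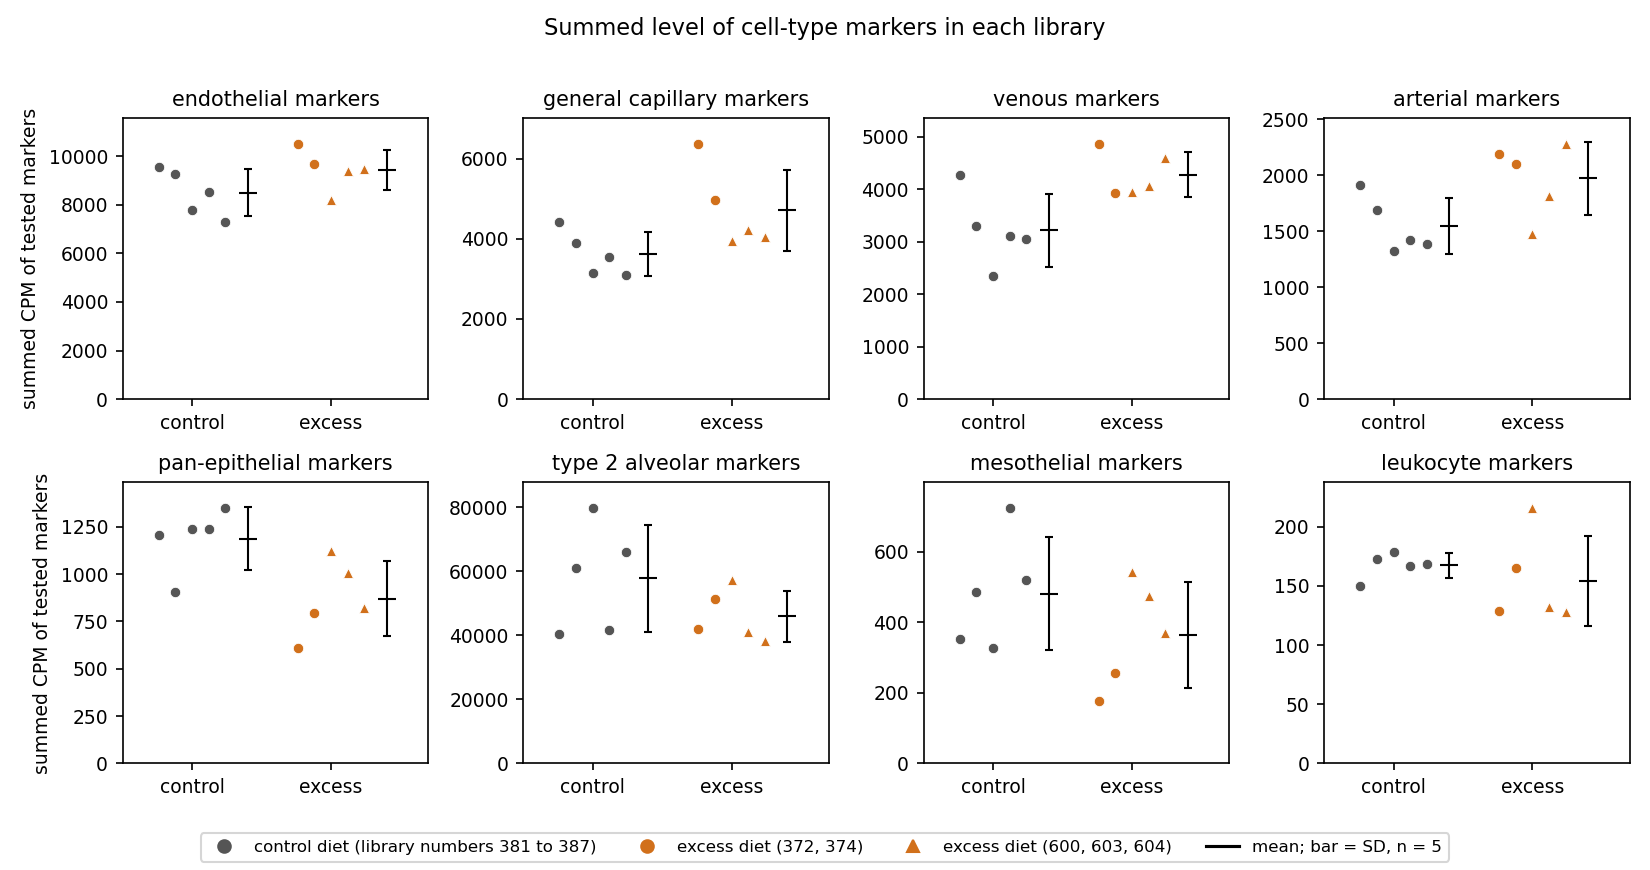
Summed CPM of the tested markers of 8 cell types in each library of the Glenn control diet (grey) and Glenn excess diet (orange; circles are lower-numbered and triangles higher-numbered libraries), with the mean and SD (n = 5) at the right of each group. The pan-epithelial sum runs from 906 to 1350 CPM on the control and 612 to 1123 CPM on the excess diet, and the mesothelial sum is lowest in excess replicates 1 and 2 while replicates 3 to 5 lie among the controls.

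The mesothelial genes behaved otherwise: their summed level was below all controls in the lower-numbered excess libraries and within the control range in the higher-numbered ones. All 5 tested mesothelial markers had a lower fitted level and 2 were called, with a median of -1.01 that shrank to -0.34 without the term. Over all 16171 tested genes, 7543 had a lower fitted level and 0.575% were called lower. The summed mesothelial level was 327 to 725 CPM in the control libraries, 177 and 256 CPM in excess replicates 1 and 2, and 370 to 543 CPM in excess replicates 3 to 5. Upk1b, a uroplakin gene of mesothelium and urothelium, stood at 66.3, 99.4, 61.9, 148 and 103 CPM on the control diet and at 34.9, 48.9, 130, 93.7 and 78.5 CPM on the excess diet. The first 2 excess libraries lay below every control, and the other 3 lay within the control range. The fitted fall was 2.02-fold with the term (log2 -1.01, SE 0.22, edgeR adjusted p 0.0196) and -0.31 in log2 without it (0.79). Lrrn4, another mesothelial gene, fell 2.20-fold with the term (edgeR adjusted p 0.0128, and 0.437 without it). Its excess replicate 5, at 94.1 CPM, also lay below the lowest control, at 102 CPM.

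A similar split by range was seen in some other genes with large falls, but not in all. In Slc7a9, for example, excess replicate 3, at 1.07 CPM, also lay below the lowest control, at 2.25 CPM. Steap4, which encodes a metalloreductase, stood at 84.7, 156, 81.8, 208 and 163 CPM on the control and at 30.7, 36.5, 134, 133 and 84.3 CPM on the excess diet. Its fall of 3.18-fold with the term (log2 -1.67, SE 0.29, edgeR adjusted p 0.0077) stood beside a called range term of 1.23 (0.00532), and without the term the diet difference was -0.73 (0.503). Prg4, the gene of the joint and mesothelial lubricant lubricin, stood at 33.4 to 80.8 CPM in the controls, 10.7 and 11.9 CPM in excess replicates 1 and 2, and 32.7 to 48.9 CPM in replicates 3 to 5. Rspo1, which encodes an enhancer of Wnt signalling, stood at 47.3 to 116 CPM in the controls, 27.3 and 36.2 CPM in those 2 libraries, and 52.0 to 67.4 CPM in the other 3. Aldh1a2, whose enzyme makes retinoic acid from retinaldehyde, had the same pattern at 28.3 and 43.9 CPM against 65.8 to 102 CPM, with controls at 46.9 to 117 CPM, and was not called (log2 -0.98, SE 0.28, edgeR adjusted p 0.0766).

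In sham-operated rats, whose excess and control groups are both of the lower-numbered range and share no library with the Glenn groups, mesothelial genes were also lower on the excess diet. The median of the 5 markers was -0.80 there, and Upk1b (log2 -0.92, edgeR adjusted p 0.04) and Prg4 (-1.25, 0.0369) were the 2 genes of the 93 that were called in the sham comparison, in which 0.241% of all tested genes were called. The sham groups were not balanced on RT1-CE16, which was low in all 5 sham excess libraries and high in 3 of the 5 sham controls. With the range term in the fit, RT1-CE16 differed by -3.41 after sham surgery (edgeR adjusted p 0.084) and -2.97 after Glenn surgery (0.0998). The range term itself was called for RT1-CE16 (4.39, 0.00532). With a term for its level in place of the range, the mesothelial median after Glenn was -0.54 and Upk1b was not called (edgeR adjusted p 0.127). Of the 93 lower genes, 83 had the same sign in the sham comparison, with a median of -0.30. Of the 144 higher genes, 94 had the same sign and none was called there, with a median of 0.06, and the all-gene median was -0.00157.

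**Figure D4:**
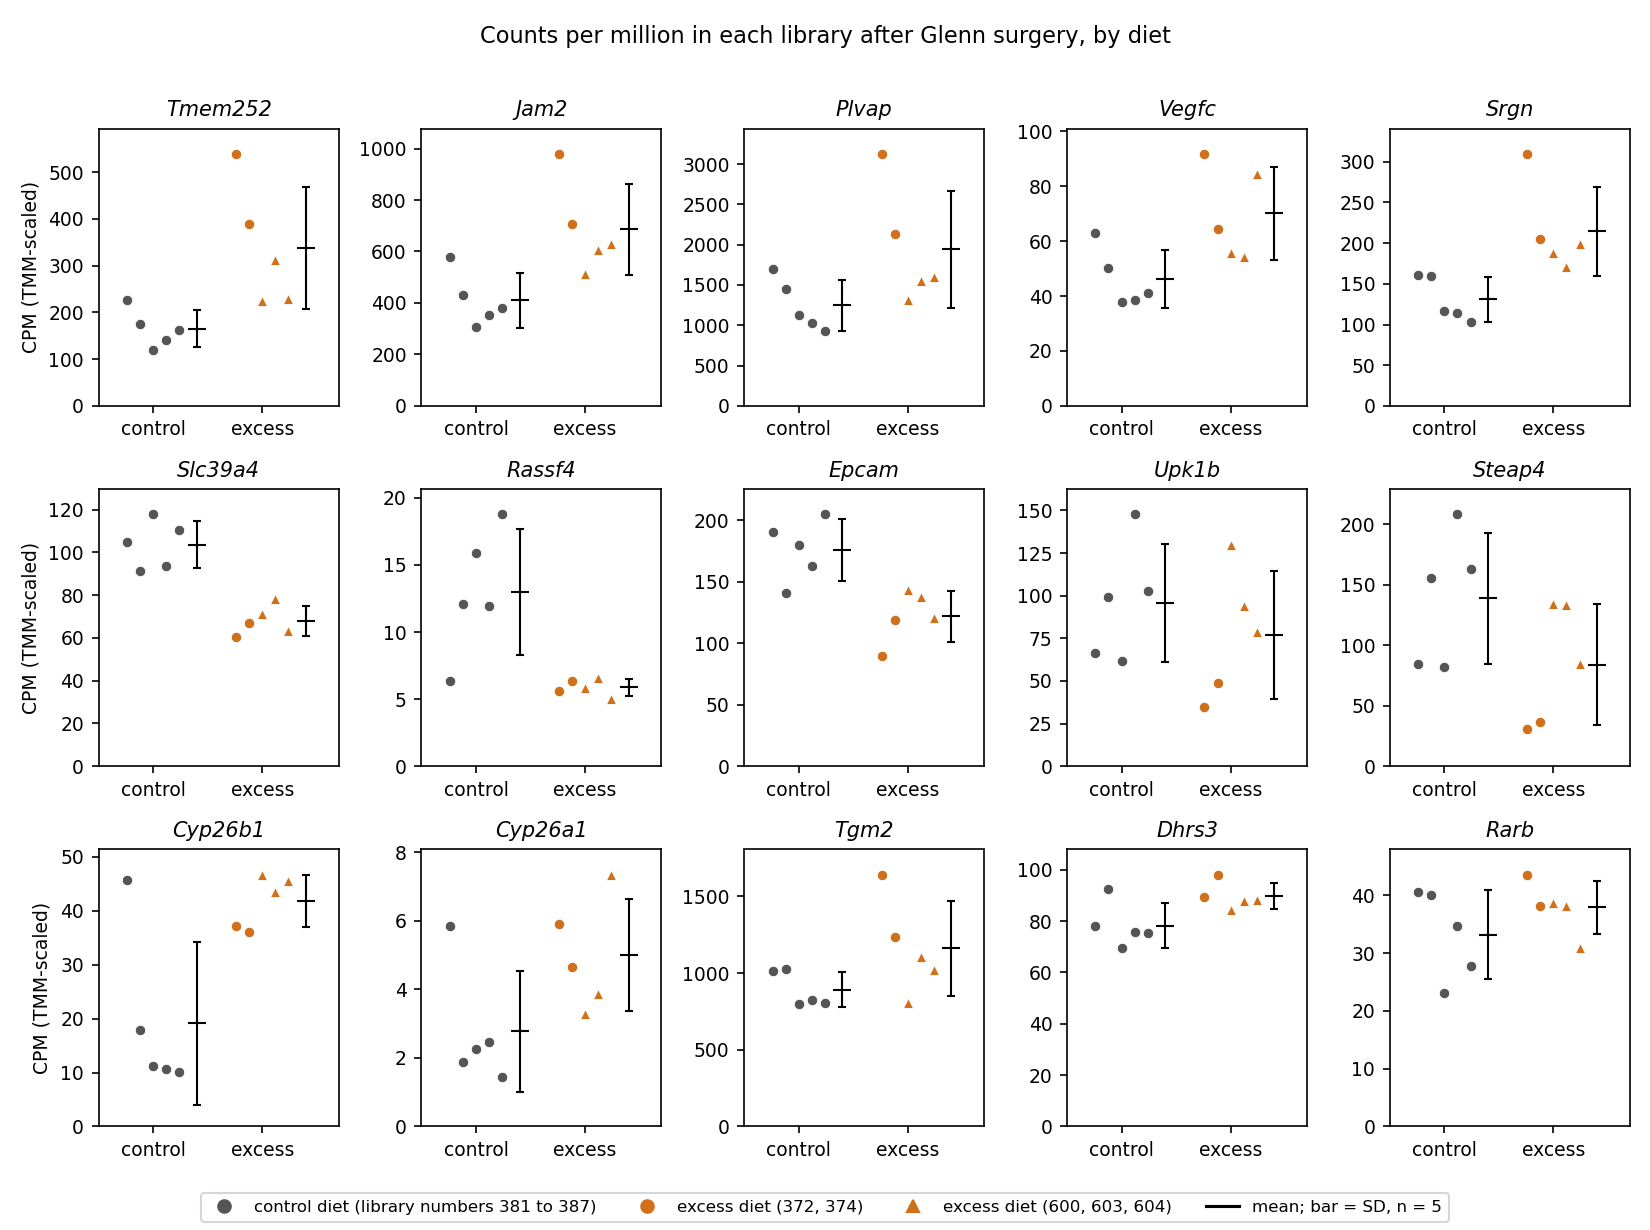
CPM of 15 genes in each library of the Glenn control diet (grey) and Glenn excess diet (orange; circles are lower-numbered and triangles higher-numbered libraries), each group in the order of replicates 1 to 5 with the mean and SD (n = 5) at its right; vertical axes are linear and start at 0. Upper panels show genes called higher, middle panels genes called lower, and lower panels genes of the retinoid pathway; Slc39a4 has no overlap between diets, Upk1b and Steap4 are low only in excess replicates 1 and 2, and Cyp26b1 is high in control replicate 1.

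Among genes known to respond directly to retinoic acid, Cyp26b1 and Cyp26a1 were lower in 4 of the 5 control libraries than in every excess library. Of the 11 tested genes of the retinoic acid-induced list, 8 had a higher and 3 a lower fitted level on the excess diet. Tgm2 alone was called, and the median of the list was 0.28 (0.19 without the term). Over all 16171 tested genes, 8628 had a higher fitted level and 0.89% were called higher. Cyp26b1 stood at 45.6, 17.8, 11.3, 10.6 and 10.1 CPM on the control diet and at 37.2, 36.0, 46.7, 43.4 and 45.4 CPM on the excess diet. Control replicate 1 lay within the excess range, and the other 4 controls lay below every excess library of either number range. With all libraries the difference missed the threshold (2.27-fold, log2 1.18, SE 0.39, edgeR adjusted p 0.136), and without control replicate 1 it was called (log2 1.79, 0.00222). That fit is singled out by the gene's own value in the library left out, so its adjusted p is no support for a rise. With each compared library left out in turn, the log2 difference ran from 1.02 to 1.79.

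Cyp26a1 had the same order at lower counts, with 5.84 CPM in control replicate 1, 1.44 to 2.46 CPM in the other controls and 3.27 to 7.35 CPM on the excess diet. Its difference was 1.12 (SE 0.38, edgeR adjusted p 0.139) with all libraries and 1.58 (0.0107) without control replicate 1. The latter fit is again singled out by the gene's own value and is no support for a rise. Control replicate 1 was also the highest control for Mki67, a gene of dividing cells. It stood at 20.5 CPM there, against 6.34 to 8.97 CPM in the other controls and 10.7 to 14.0 CPM on the excess diet. Whether the label of control replicate 1 and its values belong together was not tested.

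Tgm2, the transglutaminase gene, stood at 1013, 1024, 795, 824 and 807 CPM on the control diet and at 1641, 1237, 805, 1106 and 1021 CPM on the excess diet. Excess replicates 1 and 2 were above all controls, and replicate 3 was among the lowest of the 10. The rise was 1.49-fold (log2 0.58, SE 0.12, edgeR adjusted p 0.0149), against 0.38 (0.28) without the term. Dhrs3 stood at 78.3 ± 8.64 and 89.6 ± 5.08 CPM (SD, n = 5 each; log2 0.28, edgeR adjusted p 0.119) and Rarb at 33.2 ± 7.68 and 37.9 ± 4.51 CPM (0.29, 0.355). Among the 19 tested genes of retinoid uptake, storage and metabolism 8 were higher and 11 lower, and among the 17 retinoid receptor genes and their partners 9 and 8; no gene of either list was called.

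RAR and RXR bind pairs of half-sites in direct repeat, and a spacer of 5 bases is the best-known form. The promoter windows of RefSeq (build GRCr8, 250 bases before to 50 after the start of each gene) were searched on both strands for such repeats of half-sites with the letters AGGTCA, with the variant AGTTCA, with the variant GGTTCA or with the variant GGGTCA, in any pair. Such a repeat stood in 128 of 33469 promoters (0.382%) and in 9 of the 11921 tested genes with a window (0.0755%). It stood in 2 of the 11 matched genes of the retinoic acid-induced list, Cyp26a1 and Rarb, in 0 of the 111 matched genes called higher and in 0 of the 67 matched genes called lower, which says only that these letters are not in those windows. The windows of Cyp26a1 (chr1:244883572-244883871, plus strand) and Rarb (chr15:11336142-11336441, plus strand) are shown since they hold the best-known kind of response element; capitals mark the half-sites, which lie on the minus strand in Cyp26a1, from 92 bases before the start, and on the plus strand in Rarb, from 24 bases after it.
Cyp26a1: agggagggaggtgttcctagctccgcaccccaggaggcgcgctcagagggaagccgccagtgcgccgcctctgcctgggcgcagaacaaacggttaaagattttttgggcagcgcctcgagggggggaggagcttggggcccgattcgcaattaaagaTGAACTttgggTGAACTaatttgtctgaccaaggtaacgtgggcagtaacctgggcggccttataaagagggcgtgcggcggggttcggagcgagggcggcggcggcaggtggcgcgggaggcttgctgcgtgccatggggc
Rarb: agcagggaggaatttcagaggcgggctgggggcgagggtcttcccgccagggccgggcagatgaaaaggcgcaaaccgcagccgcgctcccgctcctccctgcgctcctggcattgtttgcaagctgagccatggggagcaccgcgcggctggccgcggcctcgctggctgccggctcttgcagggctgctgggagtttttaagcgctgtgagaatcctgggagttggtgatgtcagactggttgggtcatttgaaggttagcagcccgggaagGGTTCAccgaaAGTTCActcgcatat

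The called genes were also set beside the effect of Glenn surgery on the deficient diet. The groups of that comparison share no library with the diet groups described here. Both came from 1 fit with 1 range term. Only the sham deficient, Glenn deficient and Glenn excess groups hold libraries of both ranges, and these groups set the term. Without sham deficient replicate 2, 406 genes were called between the diets in place of 237. The paired signs are therefore not independent, and they describe the called genes and test nothing. Of the 144 genes higher on the excess diet, 126 had a lower fitted level after Glenn than after sham surgery on the deficient diet, 91 were called lower there and 6 called higher, with a median of -0.54. Among all tested genes 13.7% were called lower and 13.7% called higher in that comparison, with a median of -0.01. Vessel markers moved there too, with medians of -0.52 for general endothelial, -0.54 for general capillary, -0.80 for aerocyte and -0.12 for venous markers. The median was 0.45 for arterial and 1.01 for lymphatic markers. Whether the called genes differ in this from endothelial genes at large was not tested. Of the 93 genes lower on the excess diet, 16 were called higher and 7 called lower after Glenn on the deficient diet, with a median of 0.11.

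Plvap differed by -1.73 between Glenn and sham on the deficient diet (edgeR adjusted p 2.18e-09) and by 0.86 between excess and control diet after Glenn. The pathway genes Acvrl1 (-1.43, 4.17e-10) and Eng (-1.35, 1.17e-09) and the endothelial hypoxia-response factor gene Epas1 (-1.0, 1.08e-08) fell after Glenn on the deficient diet, and their diet differences after Glenn were 0.52, 0.52 and 0.42. Wnt5b (-2.86, 4.31e-13), Hyal3, a hyaluronidase family gene (-1.74, 5.49e-15), Slc52a3 (-1.66, 8.77e-10), Srgn (-1.35, 1.36e-08) and Tmem252 (-1.26, 2.06e-06) had the same pair of signs. Genes that rose in both comparisons included Rftn1 (0.35, 0.00238) and Gja5 (0.54, 0.0284), and Vegfc was not called after Glenn on the deficient diet (-0.17, 0.395).

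**Figure D5:**
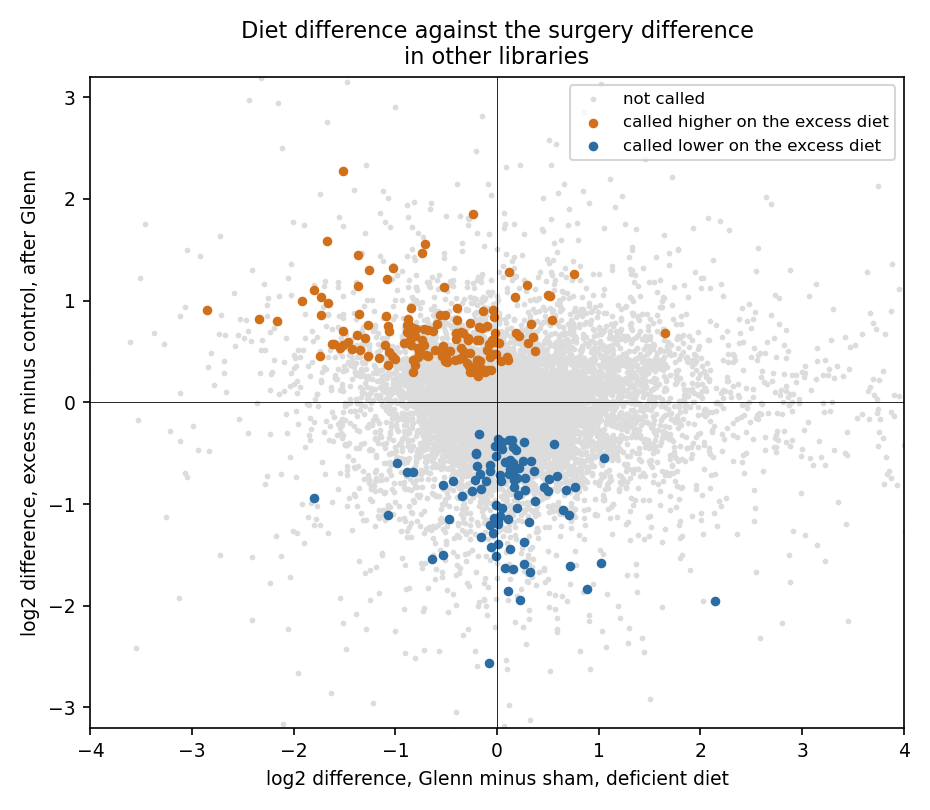
Log2 difference between Glenn and sham surgery on the deficient diet (horizontal) and between excess and control diet after Glenn surgery (vertical) for each tested gene. Both are from 1 fit. The groups compared share no library, but the range term was set by the sham deficient, Glenn deficient and Glenn excess groups. Orange and blue points are the genes called higher (144) and lower (93) on the excess diet. Most orange points (126 of 144) lie left of 0, and the blue points lie on both sides; 100 genes, 4 of them called, lie outside the axes.

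The diet difference after Glenn surgery was tested against that after sham surgery with an interaction term, and 3 genes were called (0.0186%): Rftn1, Chn2 and Maob. Their log2 difference was larger after Glenn than after sham surgery by 0.85, 0.89 and 0.98, and after sham surgery it was -0.21, -0.14 and -0.30. Without the range term no gene had a called interaction in edgeR (1226 had an unadjusted p under 0.05), and DESeq2 with the term called 55. For the other called genes a difference between the operations was not shown.

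No gene of cell division or of the interferon response lists was called. Beside these lists, 8628 of all 16171 tested genes had a higher fitted level, 2254 had an unadjusted p under 0.05 in edgeR, and 1.47% were called. Of the 30 mitosis genes, 29 had a higher fitted level on the excess diet, with a median of 0.47 (0.38 without the term), none had an unadjusted p under 0.05, with marker scores the median was 0.18, and without single libraries the median lay between 0.36 and 0.88. Mki67 differed by 0.44 (SE 0.34, edgeR adjusted p 0.629). Of the 37 tested interferon-stimulated genes, 36 had a higher fitted level and 24 an unadjusted p under 0.05, but their median of 0.53 was 0.15 without the term. Of the 24 tested antigen presentation genes, 15 were higher and 9 lower, and the class II gene RT1-Bb fell (1.75-fold, edgeR adjusted p 0.0453; 0.636 without the term); reads of RT1 genes can be shared among near-identical copies, so this value is uncertain.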

How the data were processed

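RNA sequencing libraries of CD31-positive rat lung cells were made with the PureLink and SMART-Seq v4 low-input kits, per the labels' protocols. The submitters' processing notes list FastQC, Trim Galore, Picard, STAR and Salmon and the build mRatBN7.2 (rn7), without versions. The deposited table holds each estimated count per gene as Salmon gave it, for 30562 genes; the authors' name for the table says so, and 13.6% of its values were not whole. All 30 columns were used.

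Counts were rounded, filtered with filterByExpr of edgeR 4.0.16 (minimum count 10, total 15; 16171 genes kept) and scaled by TMM. One quasi-likelihood fit (robust) held the means of the 6 groups and an additive term for the range of library names. Benjamini-Hochberg adjustment of the p-values covered all tested genes, with a threshold of 0.05. Standard errors are the log2 difference divided by the square root of F. The alternatives, with limma 3.58.1 and DESeq2 1.42.0 among the tools, are given in the closing section. The 10 libraries compared held 31.8 M to 77.6 M counts, and genes of few counts are the least precise.

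Named genes were the 10 higher and 10 lower by adjusted p (mean at least 1 CPM), the 4 and 4 with the largest difference (at least 5 CPM), called members of the 67 gene lists, up to 10 called with and without the term, and 19 preset genes; 1 more preset gene, also left out of its list, is not reported here. The libraries compared and the gene lists were chosen with earlier results of these data known. Promoter windows were matched to genes by symbol. The steps were tested on simulated data. R 4.3.3 and matplotlib 3.10.9 were used.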

Additional observations from a re-analysis of the deposited data

Results flagged for a closer look

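Among 176 groups of 5 values checked (87 named genes in both diets, and the total counts), 14 had 1 library far from the others by Dixon's criterion, and chance gives about 1 in 20, or 8.8. The value given for each is the distance to the nearest other library divided by the spread of the whole group. Control replicate 2 stood apart in total counts (0.904), Hyal3 (0.87) and Mt2A (0.782). Control replicate 1 stood apart, on the high side, in Cyp26b1 (0.783), Cyp26a1 (0.768), Mki67 (0.814), Ddah1 (0.772) and Gsg1l (0.746), control replicate 3 in Cldn7 (0.781) and control replicate 4 in Fzd8 (0.726). Excess replicate 1 was high in Spns2 (0.828), Smad6 (0.793), Srgn (0.749) and Eng (0.726). The diet effect also differed between Glenn and sham surgery, by an interaction term in edgeR, in Maob (log2 0.98), Chn2 (0.89) and Rftn1 (0.85).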

How the results depend on the processing

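The 71 called genes chosen by the naming rule kept their direction under every alternative run, which tests nothing since they were called in the same libraries. The 237 calls (144 higher, 93 lower) became 19 (17 and 2) without the range term, 78 (49 and 29) with RT1-CE16 level in place of the range, 76 (50 and 26) with that and sex, 11 (6 and 5) in RT1-CE16-low and 18 (3 and 15) in RT1-CE16-high libraries, 10 (5 and 5) with only the 2 groups in the fit, 0 (0 and 0) with those and no term (1244 at an unadjusted p under 0.05), 0 (0 and 0) with marker scores, 531 (267 and 264) by DESeq2 and 354 (226 higher) by limma voom. The 3 interaction calls became 0 without the term, 5 with RT1-CE16 level and sex, 55 by DESeq2 and 22 by limma voom. Without single libraries the calls ranged from 2 to 559 (2 to 333 higher, 0 to 226 lower) with the term, 406 of them without sham deficient replicate 2, and, in fits chosen after seeing the data, from 0 to 138 without the term (with control replicates 1 to 5 left out in turn, 138, 21, 0, 1 and 2 genes, of which 99, 17, 0, 0 and 1 higher and 39, 4, 0, 1 and 1 lower; with excess replicates 1 to 5 left out, 0, 4, 25, 21 and 29, of which 0, 3, 21, 18 and 26 higher and 0, 1, 4, 3 and 3 lower), and the interaction calls from 1 to 34. The cause of these changes was not tested.

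The replicate numbers did not pair the libraries: the correlation of deviations was 0.24, 0.12, -0.01, 0.21 and 0.11 for numbers 1 to 5, and 2 of the 5 control libraries correlated best with their own number. With a replicate block, 34 genes were called (32 higher, 2 lower).

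Some uncalled genes changed the sign of their fitted difference. RT1-CE16 itself stood at -2.97 with the range term and at 0.57 without it. With its own level in place of the range it stood at 0.0516, and at 0.0492 with sex added. It stood at 0.14 in RT1-CE16-low and 0.056 in RT1-CE16-high libraries, and at 0.56 with only the 2 groups and no term. Crabp2 changed to -0.0138 with only the 2 groups and no term. With marker scores, Sftpc changed to 0.19 and Pecam1 to -0.0581. Angpt2, at 0.00155, went to -0.14 in the lower-numbered libraries, -0.00453 with sex, -0.0302 in RT1-CE16-high libraries, -0.17 with only the 2 groups, -0.00692 with DESeq2 size factors, -0.00535 with marker scores, -0.00569 by DESeq2 and -0.0339 by limma voom, and from -0.11 to 0.16 without single libraries. Each library held at least 31.8 M counts, and genes near the count minimum are the least precise; the range and the diet are partly confounded, with all 5 control libraries in 1 range.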

Other observations

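Of 258 tested solute carrier genes, 3 rose and 2 fell on the excess diet after Glenn surgery, while 1.47% of all tested genes were called. Beside Slc52a3 and Slc39a4, the nucleoside transporter gene Slc28a2 stood at 16.8 to 26.6 CPM on the control and 28.1 to 30.4 CPM on the excess diet, with no overlap (1.45-fold, edgeR adjusted p 0.0399; 0.0914 without the range term), and Slc25a45, of the mitochondrial carrier family, rose 1.36-fold (0.0344). Slc7a9, which encodes a cystine and amino acid transporter subunit, stood at 2.25 to 11 CPM on the control diet, 0.582, 0.708 and 1.07 CPM in excess replicates 1 to 3, and 2.73 and 2.78 CPM in replicates 4 and 5. It fell 5.89-fold with the term (log2 -2.56, SE 0.44, edgeR adjusted p 0.00542), against -1.71 (0.127) without it.

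Several large gene groups held no called gene. The 99 tested ribosomal protein genes had a median log2 difference of 0.04 (-0.01 without the term), and the 90 nuclear genes of oxidative phosphorylation one of 0.05 (0.03). Of 32 genes of cholesterol and fatty acid synthesis, 25 had a lower fitted level, with a median of -0.06. Of 16 tested Notch pathway genes, 14 had a higher fitted level, with a median of 0.19 in both fits, and of 16 prostanoid genes 11 had a lower one, with a median of -0.26 (-0.18 without the term). In the counts of edgeR at an unadjusted p under 0.05, these lists held 0, 8, 4, 4 and 6 genes, in the order given. Of all 16171 tested genes, 2254 had such a p-value, and 8628 had a higher and 7543 a lower fitted level.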
